A study of Homo sapiens with 24 samples.

Results

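The collagen genes were taken as the protein-coding genes whose symbol reads COL, a number, A and a number, each of which encodes an alpha chain of a collagen. Of the 61551 genes counted, 19977 are protein-coding and 44 are collagen genes by this rule, which used no measured value. By the structures that their products build, they comprise 11 genes of fibrillar collagens and 10 of FACIT collagens (collagens that decorate fibrils). The 6 chains of the basement membrane collagen IV and 6 genes of collagen VI and related beaded filaments follow. Another 4 are of transmembrane collagens, 3 of the network-forming collagens VIII and X and 2 of multiplexins. COL7A1 of the anchoring fibrils and COL26A1 complete the set.

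Collagens are the main proteins of the extracellular matrix. Alpha chains wind around each other into a rope-like helix, either as copies of the same chain or as a fixed mix of chains from different genes, so the amount of a given collagen depends on the supply of each of its chains. Fibrillar collagens bear the tension of skin, bone and cartilage, collagen IV forms the sheet on which epithelia such as the early neural epithelium rest, and the migratory cells of the neural crest, which leave the border of the neural plate, move through and produce a collagen-containing matrix.

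RNA was sequenced from H9 (WA09) cells, an established human embryonic stem cell (hESC) line, of 4 genotypes at 2 stages, with 3 libraries per genotype and stage and 24 libraries in all. The genotypes were the unedited human sequence of HAR123 (hHAR123), a CRISPR-Cas9 deletion of this enhancer element, which lies within the SMG6 gene (HAR123-KO), and replacement of the element by its chimpanzee (cHAR123) or mouse (mHAR123) ortholog. The stages were undifferentiated hESCs, kept on Matrigel in StemFlex medium (ESC), and neuroectoderm after 5 days with Noggin and SB431542, which block BMP and activin/TGF-beta signalling (ECTO). The study used 2 clones of each genotype, the clone behind each library is not given in the sources used here, and the p-values below therefore measure only the spread between libraries. The deleted element is not a gene, so no gene's count checks the deletion.

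Counts per library ranged from 21022748 to 35198684 (median 25482501). In hHAR123, 7 of 7 neuroectoderm markers rose from ESC to ECTO and 6 of 7 pluripotency markers fell. In ECTO, the levels that the study's own supplementary table lists for cHAR123 match the libraries labelled mHAR123, and the reverse, while in ESC they match the labels. In neuroectoderm these groups are therefore called the libraries labelled cHAR123 and the libraries labelled mHAR123, and every direction drawn from either of them, or between them, depends on which of the 2 sources is right.

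Promoter windows are shown for COL11A2, COL5A3, COL23A1 and COL12A1, which differ most between HAR123-KO and hHAR123 in ECTO beside COL1A2, and for COL4A3 and COL4A4, a pair of collagen IV genes that start close to each other. COL1A2 had no entry, and of the 4 starts of COL11A2 the 2 most upstream are shown. Both lie upstream of the COL11A2 gene as counted (33162681 to 33192499 on chromosome 6), and the starts not shown lie within it. Each window covers 250 bases before and 50 bases from a RefSeq transcription start on GRCh38.p14, read 5′ to 3′ on the strand of the gene. Capitals mark a CCAAT box (CCAAT), a GC box (GGGCGG) or an AP-2 site (GCCNNNGGC) on either strand, and a TATA box (TATAAA) was searched in the same way.
COL11A2, the upstream start, chr6:33193470-33193769, minus strand: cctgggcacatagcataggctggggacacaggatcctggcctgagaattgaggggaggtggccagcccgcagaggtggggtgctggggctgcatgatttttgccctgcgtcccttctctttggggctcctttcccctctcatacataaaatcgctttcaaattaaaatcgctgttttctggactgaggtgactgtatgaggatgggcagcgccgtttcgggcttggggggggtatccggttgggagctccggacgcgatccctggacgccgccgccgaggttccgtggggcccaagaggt
COL11A2, the next start, chr6:33193088-33193387, minus strand: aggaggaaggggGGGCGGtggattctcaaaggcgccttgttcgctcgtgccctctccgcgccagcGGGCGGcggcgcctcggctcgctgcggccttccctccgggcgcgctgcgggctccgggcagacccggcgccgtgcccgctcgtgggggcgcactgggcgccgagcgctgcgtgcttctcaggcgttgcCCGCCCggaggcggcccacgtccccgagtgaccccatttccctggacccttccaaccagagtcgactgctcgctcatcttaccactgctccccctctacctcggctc
COL5A3, chr19:10010455-10010754, minus strand: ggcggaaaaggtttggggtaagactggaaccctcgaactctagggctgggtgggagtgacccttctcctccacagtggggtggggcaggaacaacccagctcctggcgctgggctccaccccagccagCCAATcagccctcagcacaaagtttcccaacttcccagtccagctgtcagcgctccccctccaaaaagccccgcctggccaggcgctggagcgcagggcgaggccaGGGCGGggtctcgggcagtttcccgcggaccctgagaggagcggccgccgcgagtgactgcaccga
COL23A1, chr5:178590344-178590643, minus strand: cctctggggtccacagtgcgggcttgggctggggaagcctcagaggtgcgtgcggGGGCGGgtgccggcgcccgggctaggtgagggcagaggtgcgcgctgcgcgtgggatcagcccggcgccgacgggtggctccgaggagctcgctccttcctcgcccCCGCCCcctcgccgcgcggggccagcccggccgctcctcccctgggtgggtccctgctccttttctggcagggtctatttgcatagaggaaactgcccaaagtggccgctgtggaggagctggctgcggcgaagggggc
COL12A1, chr6:75206004-75206303, minus strand: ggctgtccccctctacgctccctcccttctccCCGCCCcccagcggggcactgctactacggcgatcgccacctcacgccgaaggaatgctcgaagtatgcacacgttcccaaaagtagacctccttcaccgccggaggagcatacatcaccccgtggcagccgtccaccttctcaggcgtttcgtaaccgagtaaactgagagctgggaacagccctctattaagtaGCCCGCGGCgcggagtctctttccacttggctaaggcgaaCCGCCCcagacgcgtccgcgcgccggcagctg
COL4A4, chr2:227164156-227164455, minus strand: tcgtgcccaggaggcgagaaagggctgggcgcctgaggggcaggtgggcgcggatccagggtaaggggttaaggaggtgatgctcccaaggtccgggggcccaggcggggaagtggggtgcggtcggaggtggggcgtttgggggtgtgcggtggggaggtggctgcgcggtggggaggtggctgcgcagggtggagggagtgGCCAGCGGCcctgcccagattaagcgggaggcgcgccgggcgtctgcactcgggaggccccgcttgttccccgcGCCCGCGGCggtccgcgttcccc
COL4A3, chr2:227164374-227164673, plus strand: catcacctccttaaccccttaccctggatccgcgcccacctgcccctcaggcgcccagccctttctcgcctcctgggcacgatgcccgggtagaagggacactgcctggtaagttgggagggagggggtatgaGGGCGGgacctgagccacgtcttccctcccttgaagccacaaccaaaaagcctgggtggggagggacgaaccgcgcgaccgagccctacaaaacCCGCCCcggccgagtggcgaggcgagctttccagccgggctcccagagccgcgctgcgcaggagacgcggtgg

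None of these 7 windows holds the TATA box letters. COL23A1 and COL4A3 hold 2 GC boxes each, the downstream COL11A2 window holds 3, COL12A1 holds 2 GC boxes and 1 AP-2 match, COL5A3 holds 1 CCAAT and 1 GC box, and COL4A4 holds 2 AP-2 matches. In all, 32 of the 44 collagen genes had an entry, with 44 windows. A GC box stood in 54.5% of the collagen windows and 45% of all 35116 promoter windows, an AP-2 match in 29.5% and 23.2%, a CCAAT box in 31.8% and 34.6%, and a TATA box in 18.2% and 11.5%. A match describes the letters only.

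Levels of different genes were compared per length, as CPM (counts scaled to the same library total) per kilobase of merged exons (RPKM). In ESC, COL18A1, whose product carries the endostatin fragment in basement membranes, had the highest level of all collagen genes in every genotype, at 62.7 ± 0.898 RPKM (SD, n = 3) in hHAR123 and 69.4 ± 2.45 RPKM in HAR123-KO. COL6A1, a chain of collagen VI, followed in hHAR123 at 28.0 ± 0.295 RPKM, then COL26A1 at 25.9 ± 0.651 RPKM and COL6A2 at 18.6 ± 0.271 RPKM. In cHAR123 ESC, COL26A1 at 29.3 ± 0.564 RPKM and COL6A1 at 28.7 ± 0.404 RPKM did not differ beyond their spread.

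In ECTO the order changed. COL2A1, the single chain of cartilage collagen II and also expressed in early neural epithelium, led in hHAR123 with 44.7 ± 1.64 RPKM, ahead of COL18A1 with 25.8 ± 0.723 RPKM. COL4A5 at 16.7 ± 0.0776 RPKM and COL6A1 at 16.6 ± 0.442 RPKM came next and did not differ beyond their spread. In HAR123-KO ECTO the leading gene was COL1A2, the alpha 2 chain of collagen I, with 53.7 ± 1.33 RPKM against 37.7 ± 0.942 RPKM for COL2A1, whereas COL1A2 stood at 7.57 RPKM in hHAR123 ECTO. Of the 44 genes, 32 to 37 reached a mean of 1 CPM in a group, and 1 to 4 had no more than 3 counts in any library of a group, COL8A1 in every ECTO group among them. The per-length levels assume the full merged exon length of each gene.

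Together the 44 genes took a larger part of the RNA in HAR123-KO neuroectoderm than elsewhere. They made up 0.188% to 0.192% of the counts of the hHAR123 ECTO libraries and 0.270% to 0.282% of those of HAR123-KO ECTO, against 0.203% to 0.208% and 0.217% to 0.219% in the ECTO libraries labelled cHAR123 and mHAR123. COL1A2 made up 4.15% to 4.49% of the collagen counts in hHAR123 ECTO and 21.1% to 21.2% in HAR123-KO ECTO. Without COL1A2 the collagen total was 1797 to 1843 CPM in hHAR123 and 2127 to 2218 CPM in HAR123-KO. In ESC the share of counts was 0.181% to 0.184% in hHAR123 and 0.202% to 0.209% in HAR123-KO.

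To learn which collagen genes depend on HAR123 in neuroectoderm, HAR123-KO was compared with hHAR123 by edgeR's quasi-likelihood test, and a gene was called when its log2 fold change passed 1 in either direction with a Benjamini-Hochberg adjusted p below 0.01. Of 37 collagen genes tested, 11 rose in HAR123-KO (4.92% of all genes tested rose) and 1 fell (4.52% of all genes tested fell). Without COL4A3 and COL21A1, which passed the filter on low counts only through the knockout libraries, 9 of 35 rose. Over all 37 collagen genes tested, the median log2 fold change was 0.46, with 24 above and 13 below 0, against a median of 0.00 over all genes tested. In these bulk samples, more cells that express a gene and more RNA per cell cannot be told apart. The 7 genes below the low-count filter were COL3A1, COL6A5, COL8A1, COL8A2, COL10A1, COL19A1 and COL20A1.

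**Figure D1:**
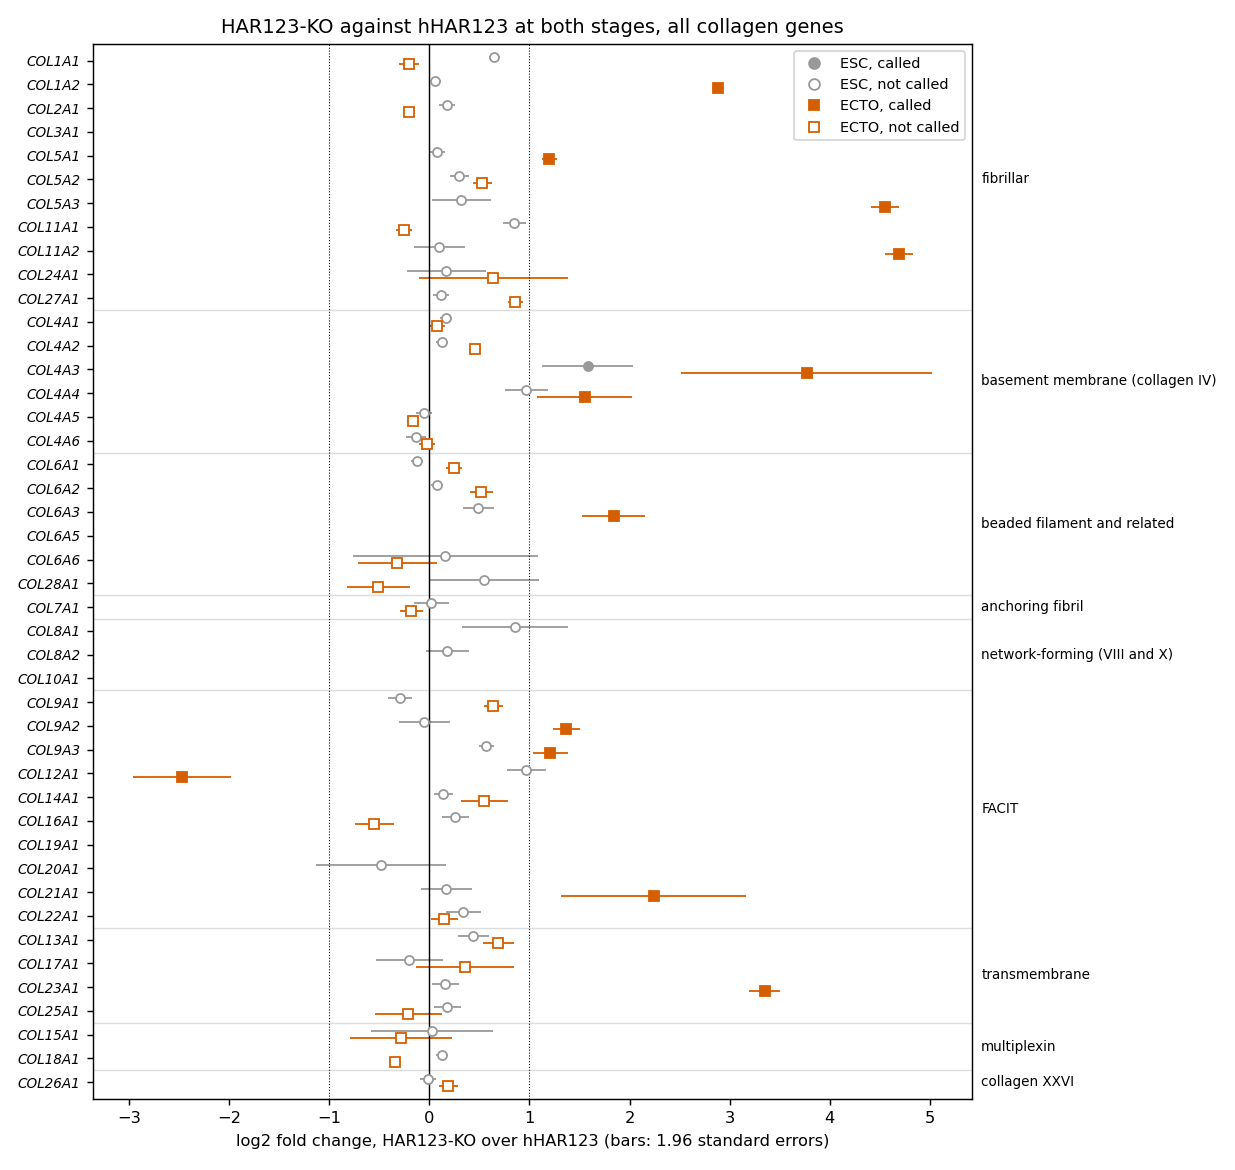
Log2 fold change of HAR123-KO over hHAR123 (horizontal axis) for each collagen gene, grouped by class, in ESC (circles) and ECTO (squares). Bars are 95% intervals from the standard error, filled symbols are called, and a gene with no symbol was not tested at that stage. The ECTO values of COL11A2, COL5A3, COL23A1 and COL1A2 lie at 2.88 or more, far from their ESC values, and COL12A1 lies at -2.47.

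Among the fibrillar collagens, 4 of 10 tested genes rose and none fell, with a median log2 fold change of 0.75. COL11A2, the alpha 2 chain of the cartilage collagen XI, had 113, 110 and 107 CPM in HAR123-KO and 5.09, 4.46 and 3.72 CPM in hHAR123. The knockout libraries were uniformly high, far above the hHAR123 range. The fitted difference was 25.8-fold (log2 fold change 4.69, SE 0.07, adjusted p = 3.4e-47, edgeR's quasi-likelihood test).

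COL5A3, a minor chain of collagen V, which helps to start fibrils, had 78.0, 78.1 and 75.1 CPM in HAR123-KO and 2.997, 3.761 and 3.416 CPM in hHAR123. Again the 3 knockout libraries lay close together and well apart from the hHAR123 libraries. COL5A3 was 23.4-fold higher (log2 fold change 4.55, SE 0.07, adjusted p = 7.38e-45, edgeR's quasi-likelihood test). COL5A1, the chain common to the usual forms of collagen V, had 169, 169 and 164 CPM in HAR123-KO against 75.5, 75.1 and 75.4 CPM. The level was 2.3-fold higher (log2 fold change 1.2, SE 0.04, adjusted p = 6.64e-33, edgeR's quasi-likelihood test), and the groups did not overlap. The remaining chain, COL5A2, had a log2 fold change of 0.53 (SE 0.05) and did not reach the call.

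COL1A2 had 597, 576 and 570 CPM in HAR123-KO and 81.0, 79.8 and 84.8 CPM in hHAR123. The lowest knockout library was several times the highest hHAR123 library. The fitted difference was 7.36-fold (log2 fold change 2.88, SE 0.03, adjusted p = 5.22e-51, edgeR's quasi-likelihood test). COL1A1, the partner that supplies most chains of collagen I, had 40.7, 38.4 and 39.4 CPM against 45.3, 50.3 and 45.3 CPM, slightly less in the knockout, and with a log2 fold change of -0.20 (SE 0.05) it was not called. The other fibrillar genes that were tested and not called were COL27A1 (log2 fold change 0.86), COL24A1 (0.64), COL2A1 (-0.20) and COL11A1 (-0.25). COL3A1, the chain of collagen III, was too low to test, with 6, 14 and 8 counts in HAR123-KO and 0, 0 and 3 in hHAR123.

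Among the FACIT collagens, 3 of 8 tested genes rose and 1 fell. COL9A2, a chain of the cartilage collagen IX, had 30.1, 32.9 and 31.6 CPM in HAR123-KO and 12.1, 13.6 and 12.1 CPM in hHAR123, groups that did not overlap (log2 fold change 1.37, SE 0.07, adjusted p = 2.62e-23, edgeR's quasi-likelihood test). COL9A3, its partner chain, had 20.5, 18.9 and 18.7 CPM against 9.276, 9.794 and 7.003 CPM, also without overlap (log2 fold change 1.21, SE 0.09, adjusted p = 7.15e-17, edgeR's quasi-likelihood test). COL9A1, which encodes the remaining chain of collagen IX, had a log2 fold change of 0.64 (SE 0.05) and was not called. Part of the exons of COL9A3 (3.20% of its length) overlaps TCFL5 on the other strand, which had 24.8 to 26.7 CPM in HAR123-KO ECTO and 22.0 to 24.2 CPM in hHAR123 ECTO. Whether counting used strand is not given in the sources used here, so reads of the 2 genes cannot be told apart there.

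COL12A1, whose product binds the surface of collagen I fibrils, was the only collagen gene that fell in HAR123-KO neuroectoderm among those tested. It had 0.560, 0.458 and 0.409 CPM in HAR123-KO (13, 11 and 10 counts) and 2.90, 2.73 and 2.65 CPM in hHAR123 (61, 66 and 62 counts). All 3 knockout libraries were low and the hHAR123 libraries were close to each other. The difference was 5.56-fold (log2 fold change -2.47, SE 0.25, adjusted p = 3.06e-12, edgeR's quasi-likelihood test). COL21A1, named here after its values were seen because it was called below a mean of 1 CPM, had 15, 19 and 15 counts in HAR123-KO and 2, 2 and 6 in hHAR123 (log2 fold change 2.24, SE 0.47, adjusted p = 6.14e-05, edgeR's quasi-likelihood test). This gene passed the filter on low counts only through the knockout libraries. The FACIT genes COL14A1 (log2 fold change 0.55), COL22A1 (0.15) and COL16A1 (-0.55) were not called.

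COL23A1 was the 1 transmembrane collagen of 4 tested that rose. Its product sits in the cell membrane and sheds its collagenous domain. It had 51.2, 50.9 and 50.6 CPM in HAR123-KO against 5.76, 5.46 and 4.31 CPM in hHAR123, with tight knockout values. The difference was 10.2-fold (log2 fold change 3.35, SE 0.08, adjusted p = 1.97e-38, edgeR's quasi-likelihood test). COL13A1 (log2 fold change 0.69), COL17A1 (0.36) and COL25A1 (-0.21) were not called.

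Of the beaded filament group, 1 of 5 tested genes rose. COL6A3, the largest chain of the usual collagen VI, had 5.13, 5.58 and 5.23 CPM in HAR123-KO and 1.38, 1.36 and 1.84 CPM in hHAR123, without overlap (log2 fold change 1.84, SE 0.16, adjusted p = 4.16e-14, edgeR's quasi-likelihood test). Its partners COL6A1 (log2 fold change 0.25) and COL6A2 (0.52) were not called, nor were COL6A6 (-0.32) and COL28A1 (-0.51). The multiplexins COL18A1 (-0.34) and COL15A1 (-0.28), COL7A1 (-0.18) and COL26A1 (0.19) were not called either. Of the length of COL18A1, 18.5% overlaps SLC19A1 on the other strand, which had 40.2 to 42.5 CPM in HAR123-KO ECTO and 21.9 to 26.9 CPM in hHAR123 ECTO.

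**Figure D2:**
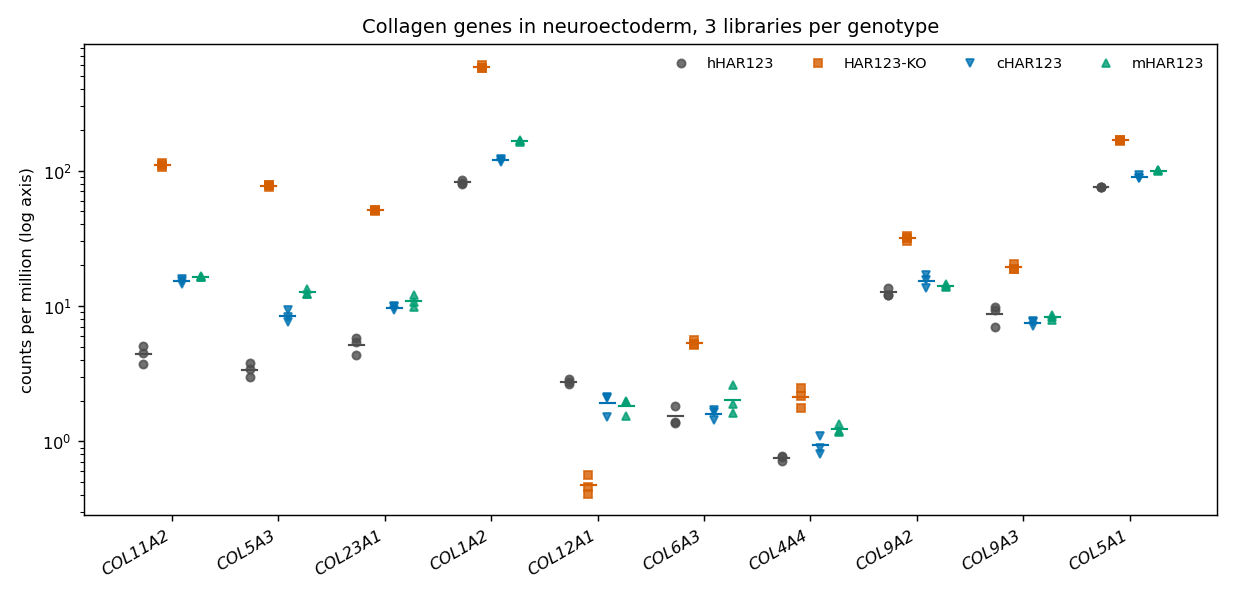
Level in CPM (log axis) of 10 collagen genes called between HAR123-KO and hHAR123 in ECTO, with 1 point per library, 3 libraries per genotype, and a bar at the mean. The HAR123-KO points lie above all others for 9 genes and below them for COL12A1, and the libraries labelled cHAR123 and mHAR123 lie between for COL11A2, COL5A3, COL23A1 and COL1A2.

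Markers of other cell types moved with these genes. All 7 of 7 neural crest markers rose in HAR123-KO ECTO, from FOXD3 (log2 fold change 6.27) to SOX9 (1.08), and none was at 0 in any ECTO group. Their summed level was 1397 to 1414 CPM in HAR123-KO, 127.8 to 133.2 CPM in hHAR123, and 210.2 to 216.1 and 264.3 to 271.8 CPM in the ECTO libraries labelled cHAR123 and mHAR123. Of 7 neuroectoderm markers, HES5 (-3.00), SIX3 (-2.30), LHX2 (-1.97) and SOX1 (-1.60) fell and NR2F1 (1.72) rose, and their sum went from 1293 to 1310 CPM in hHAR123 to 796.5 to 804.8 CPM in HAR123-KO. Their part in the collagen differences was not tested.

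Other lists moved less than the neural crest markers. Of 4 tested markers of mesenchyme and paraxial mesoderm, PDGFRA (2.13) and MEOX1 (1.12, not called by DESeq2) rose, with sums of 17.5 to 18.2 CPM in HAR123-KO and 6.94 to 7.18 CPM in hHAR123, and TBXT had no more than 3 counts in any library of either group. Of 3 tested markers of cartilage and notochord, CNMD (1.85) rose, with sums of 8.24 to 8.58 and 5.19 to 6.06 CPM. The notochord genes NOTO and SHH were at 0 in HAR123-KO and had no more than 3 counts in any hHAR123 library, so they show no difference. Of 3 endothelial markers tested, TEK and KDR rose (sums 41.3 to 42.7 and 20.98 to 23.97 CPM). Of 7 pluripotency markers, 1, ZFP42, rose (sums 1690 to 1725 CPM in HAR123-KO and 1868 to 1965 CPM in hHAR123). Of 5 surface ectoderm markers tested, 1, GATA3, rose (173.6 to 184.1 and 192.7 to 201.6 CPM). GATA3 had no more than 3 counts in any hHAR123 library and passed the filter on low counts only through the knockout libraries. Of 1 endoderm marker tested, 0 was called (51.3 to 55.3 and 47.6 to 48.7 CPM, SOX17 at 0 in both groups). The part of these lists in the collagen differences was not tested.

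Because collagens I, V and XI are assembled from chains of several genes, the ratio of chains within a library was compared, per length. The ratio of COL1A2 to COL1A1 was 1.46 ± 0.122 (SD, n = 3) in hHAR123 ECTO and 12.3 ± 0.242 in HAR123-KO ECTO. The ratio of COL11A2 to COL11A1 was 0.0463 ± 0.00617 in hHAR123 ECTO and 1.42 ± 0.0336 in HAR123-KO ECTO. Thus the RNA level of the alpha 2 chain of collagen XI went from a small fraction of that of its alpha 1 partner to above it, without overlap of the libraries. Protein was not measured.

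The ratio of COL5A3 to COL5A1 was 0.0741 ± 0.00857 in hHAR123 ECTO and 0.758 ± 0.00431 in HAR123-KO ECTO, while that of COL5A2 to COL5A1 was 0.686 ± 0.0326 and 0.431 ± 0.0108. In both cases the 2 groups did not overlap, and they differed in opposite directions. In ESC the ratio of COL1A2 to COL1A1 was below 1 in every genotype, from 0.569 ± 0.0209 in HAR123-KO to 0.854 ± 0.00477 in hHAR123. In ECTO it was 2.82 ± 0.0312 (labelled cHAR123) and 3.82 ± 0.240 (labelled mHAR123), between hHAR123 and HAR123-KO. With 3 libraries against 3, an exact two-sided permutation test of such a ratio cannot go below p = 0.1, so no ratio was tested.

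**Figure D3:**
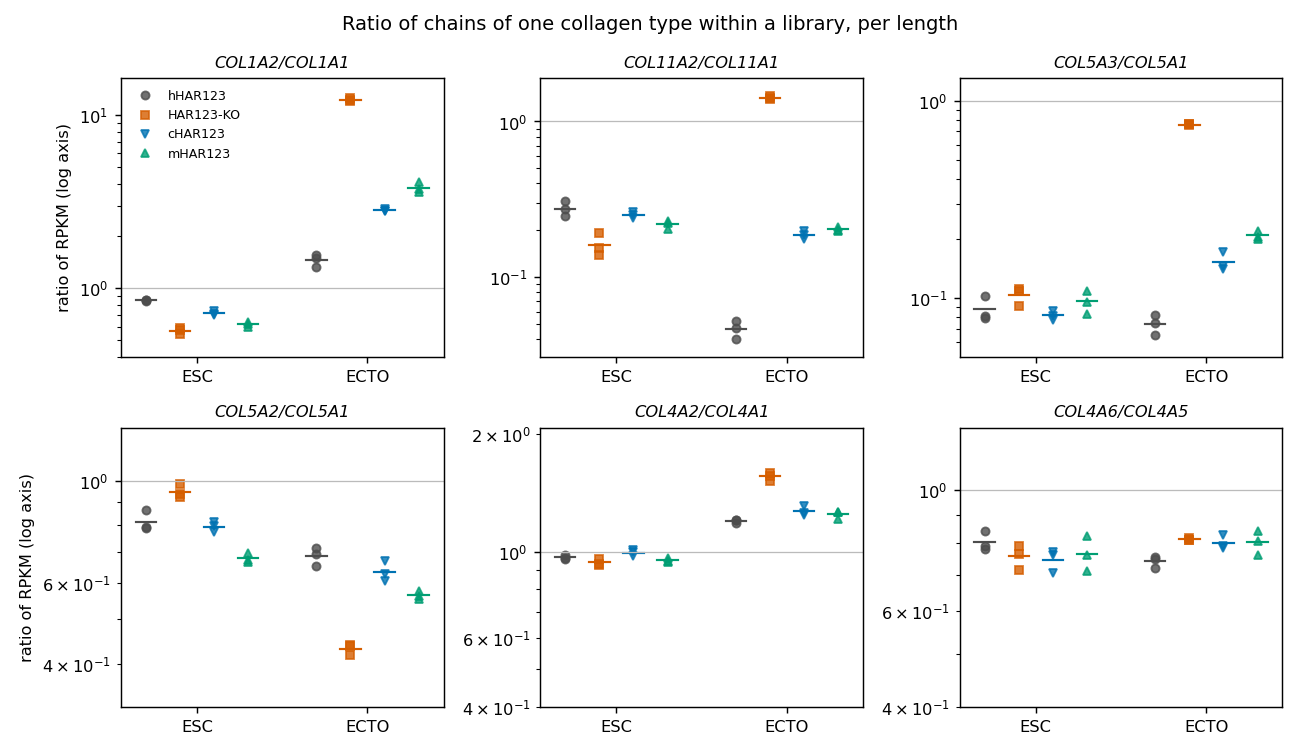
Ratio of 2 chains of a collagen type within each library, from RPKM (log axes, 1 panel per pair), by stage and genotype, with 1 point per library and a bar at the mean. HAR123-KO ECTO stands apart in the pairs of collagens I, XI and V, with 12.3 for COL1A2 over COL1A1, while COL4A6 over COL4A5 lies between 0.704 and 0.841 in every library.

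The knock-in genotypes ask how the chimpanzee or mouse sequence compares with the human one. Against hHAR123 ECTO, 2 of 35 collagen genes tested rose in the libraries labelled cHAR123 (0.522% of all genes tested) and 0 fell (0.456%). In those labelled mHAR123, 4 of 34 rose (0.603% of all genes tested) and 0 fell (0.429%). At an unadjusted p under 0.05 by edgeR's quasi-likelihood test, 16 collagen genes were higher and 3 lower in the former, and 22 higher and 5 lower in the latter. DESeq2 called 0 lower in both. The share of all genes tested at the unadjusted cut is not given here, so those counts do not set collagen genes apart. These comparisons share the hHAR123 libraries with each other and with the knockout comparison. Their medians over the collagen genes tested were 0.13 and 0.24 on the log2 scale, against -0.01 over all genes in each.

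COL11A2 had 15.8, 14.5 and 15.2 CPM in the libraries labelled cHAR123 and 16.4, 16.6 and 16.3 CPM in those labelled mHAR123. Both groups were above hHAR123 and far below HAR123-KO. The log2 fold changes over hHAR123 were 1.80 (SE 0.10, adjusted p = 7.08e-18) and 1.94 (SE 0.10, adjusted p = 1.97e-18) by edgeR's quasi-likelihood test, and those over HAR123-KO were -2.87 and -2.73.

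COL5A3 had 8.25, 9.25 and 7.58 CPM in the libraries labelled cHAR123 and 13.4, 12.2 and 12.3 CPM in those labelled mHAR123. The groups did not overlap with each other or with hHAR123 and HAR123-KO. Over hHAR123 the log2 fold changes were 1.31 (SE 0.12, adjusted p = 3.09e-11) and 1.93 (SE 0.11, adjusted p = 4.44e-17) by edgeR's quasi-likelihood test. COL1A2 had 122, 116 and 121 CPM against 162, 166 and 167 CPM, again with 4 separate groups. Its log2 fold change was 0.56 (SE 0.04) in the libraries labelled cHAR123, below the fold threshold, and 1.05 (SE 0.04, adjusted p = 6.43e-23, edgeR's quasi-likelihood test) in those labelled mHAR123.

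COL23A1 had 9.93, 9.85 and 9.33 CPM in the libraries labelled cHAR123 and 10.8, 12.1 and 9.86 CPM in those labelled mHAR123, above hHAR123 and below HAR123-KO. Only the second group reached the call, at a log2 fold change of 1.12 (SE 0.11, adjusted p = 3.07e-10, edgeR's quasi-likelihood test) against 0.92 (SE 0.11) for the first. The libraries labelled mHAR123 and cHAR123 were also compared directly: 0 of 35 collagen genes tested rose (0.104% of all genes tested) and 0 fell (0.156%). Here edgeR's quasi-likelihood test gave 13 genes higher and 3 lower in those labelled mHAR123 at an unadjusted p under 0.05, and DESeq2 called 0 in either direction. The share of all genes tested at that unadjusted cut is not given here either. The largest differences among the genes above were 0.62 for COL5A3 (SE 0.09) and 0.49 for COL1A2 (SE 0.03) on the log2 scale, both under the fold threshold, and COL11A2 differed by 0.14 (SE 0.07, adjusted p = 0.29, edgeR's quasi-likelihood test).

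Set against HAR123-KO ECTO, 11 of 38 collagen genes tested were lower in the libraries labelled cHAR123 (3.91% of all genes tested) and 1 was higher (3.70%). In those labelled mHAR123, 8 of 37 were lower (3.78%) and 1 was higher (3.55%). COL1A2, COL4A3, COL5A3, COL6A3, COL9A2, COL9A3, COL11A2 and COL23A1 were lower in both, and the higher gene was COL12A1 in both, with log2 fold changes of 1.99 and 1.94. COL4A3 passed the filter on low counts only through the knockout libraries in both comparisons. COL21A1 and COL24A1, among the genes lower in the libraries labelled cHAR123, did so in that comparison. For these genes the filter itself favoured the lower direction. These comparisons share the HAR123-KO libraries. Neural crest markers differed likewise: 5 of 7 rose over hHAR123 among libraries labelled cHAR123 and 6 of 7 among those labelled mHAR123, and their part in the collagen values was not tested.

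In ESC the collagen genes called between genotypes were all of the collagen IV family, and all other differences were below the fold threshold or did not pass the test. HAR123-KO against hHAR123 gave 1 of 40 genes tested higher (0.960% of all genes tested) and 0 lower (0.221%). For cHAR123 it was 1 of 39 (0.626%) and 0 (0.225%), and for mHAR123 2 of 39 (1.03%) and 0 (0.199%). At an unadjusted p under 0.05 by edgeR's quasi-likelihood test, 23 collagen genes were higher and 3 lower in HAR123-KO, 26 and 0 in cHAR123, and 25 and 1 in mHAR123. At an adjusted p under 0.01 and any fold, the same test gave 15, 23 and 20 higher and 2, 0 and 0 lower. With the fold threshold kept, DESeq2 called 0 lower in each. The share of all genes tested at these looser cuts is not given here, so these counts do not set collagen genes apart. The 3 comparisons share the hHAR123 ESC libraries, and a shift of those libraries would appear in all of them.

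COL4A3, which encodes the alpha 3 chain of collagen IV known from kidney and lung basement membranes, had 0.978, 0.452 and 0.682 CPM in hHAR123 ESC (31, 15 and 24 counts). It had 2.14, 1.80 and 2.42 CPM in HAR123-KO, 1.73, 1.55 and 2.48 CPM in cHAR123, and 2.0, 2.88 and 2.15 CPM in mHAR123. Every library of the edited genotypes was above every hHAR123 library. The log2 fold changes were 1.58 (SE 0.23, adjusted p = 1.08e-06), 1.43 (SE 0.24, adjusted p = 2.21e-05) and 1.69 (SE 0.22, adjusted p = 5.82e-08) by edgeR's quasi-likelihood test. Of the length of COL4A3, 6.82% overlaps the antisense gene MFF-DT, which had 1.87 to 2.59 CPM in hHAR123 ESC and 1.84 to 3.33 CPM in HAR123-KO ESC.

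COL4A4 starts 419 bases away from COL4A3 on the opposite strand, and the windows printed above for the pair overlap. It had 3.72, 3.43 and 3.30 CPM in hHAR123 ESC, 6.39, 7.04 and 7.18 CPM in HAR123-KO, 6.61, 6.68 and 6.85 CPM in cHAR123, and 7.13, 7.34 and 7.45 CPM in mHAR123. As for COL4A3, all hHAR123 libraries were below all others. The log2 fold changes were 0.97 (SE 0.11), 0.92 (SE 0.11) and 1.03 (SE 0.11, adjusted p = 1.11e-10, edgeR's quasi-likelihood test), so only mHAR123 passed the fold threshold of 1. This call depends on single libraries: the value for mHAR123 was 0.98 without hHAR123 ESC replicate 3, and that for HAR123-KO was 1.01 without HAR123-KO ESC replicate 1 and 1.02 without hHAR123 ESC replicate 1.

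In neuroectoderm both genes were lower in level than in ESC, and their levels were highest in HAR123-KO. COL4A3 had 13, 17 and 16 counts in HAR123-KO ECTO and 3, 0 and 0 in hHAR123 ECTO, and it passed the filter on low counts only through the knockout libraries. The ratio of the summed counts, scaled by library totals, was 14.7 (95% counting interval 4.72 to 73.8), and edgeR's quasi-likelihood test gave an adjusted p of 1.55e-06. The fitted log2 fold change was 3.77 and became 6.96 without hHAR123 ECTO replicate 1, which held all 3 counts. COL4A4 had 1.766, 2.497 and 2.166 CPM in HAR123-KO ECTO and 0.714, 0.785 and 0.769 CPM in hHAR123 ECTO, without overlap (log2 fold change 1.55, SE 0.24, adjusted p = 3.34e-07, edgeR's quasi-likelihood test). In the ECTO libraries labelled cHAR123 and mHAR123 its log2 fold changes over hHAR123 were 0.31 (SE 0.29) and 0.75 (SE 0.27), neither called. MFF-DT had 3.16 to 4.14 CPM in hHAR123 ECTO and 2.95 to 4.70 CPM in HAR123-KO ECTO.

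The other 2 collagen IV pairs are arranged the same way. COL4A1 and COL4A2, the chains of nearly all basement membranes, start 127 bases apart on chromosome 13, and COL4A5 and COL4A6 start 380 bases apart on the X chromosome. None of these 4 genes was called in any comparison with hHAR123 at the same stage. The log2 fold changes of HAR123-KO over hHAR123 were 0.17 and 0.13 for COL4A1 and COL4A2 in ESC and 0.08 and 0.46 in ECTO, and for COL4A5 and COL4A6 they were -0.05 and -0.13 in ESC and -0.16 and -0.02 in ECTO.

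Within the COL4A1 and COL4A2 pair the values parted in ECTO. COL4A1 had 128, 130 and 125 CPM in HAR123-KO ECTO and 125, 126 and 124 CPM in hHAR123 ECTO, ranges that overlap, whereas COL4A2 had 268, 260 and 258 CPM against 198, 197 and 195 CPM, ranges that do not. The ratio of COL4A2 to COL4A1, per length, was 1.2 ± 0.0111 in hHAR123 ECTO and 1.56 ± 0.0380 in HAR123-KO ECTO, and group means in ESC were 0.939 to 0.993. The ratio of COL4A6 to COL4A5 was 0.741 ± 0.0182 and 0.813 ± 0.00338 in hHAR123 and HAR123-KO ECTO.

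**Figure D4:**
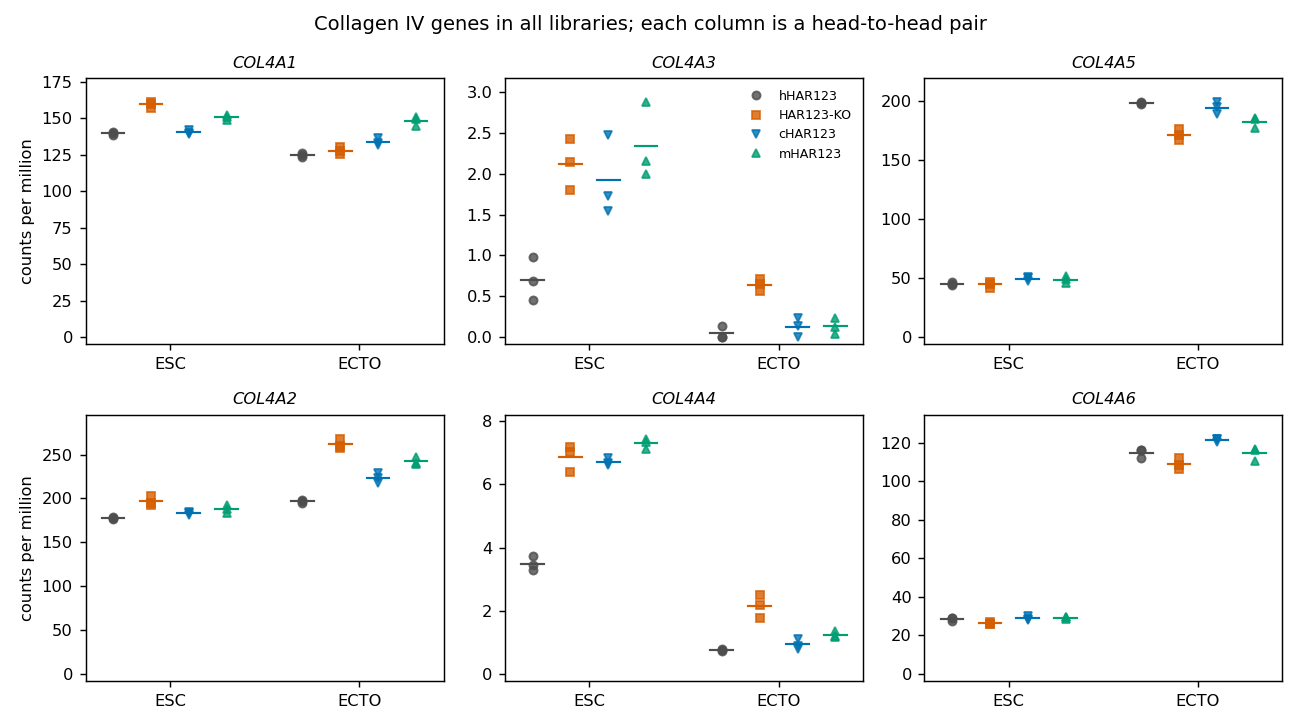
Level in CPM of the 6 collagen IV genes, with 1 point per library and a bar at the mean, by stage and genotype, and each column showing a head-to-head pair. COL4A3 and COL4A4 are lowest in hHAR123 among the ESC groups and lower in ECTO, COL4A5 and COL4A6 are higher in ECTO in every genotype, and COL4A1 lies between 123.5 and 161.2 CPM.

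Over all collagen genes, small differences in ESC ran mostly upward. In HAR123-KO ESC 32 of 40 collagen genes tested had a log2 fold change above 0 (median 0.16, against 0.00 over all genes tested), in cHAR123 36 of 39 (median 0.30 against 0.01) and in mHAR123 35 of 39 (median 0.32 against 0.01). Without the collagen IV genes, 28 of 34, 32 of 33 and 30 of 33 were above 0. COL1A1 had 90.8, 87.2 and 86.5 CPM in hHAR123 ESC and 139, 138 and 142 CPM in HAR123-KO ESC, with no overlap and a log2 fold change of 0.65 (SE 0.03, adjusted p = 1.31e-19, edgeR's quasi-likelihood test), below the fold threshold. COL12A1 (log2 fold change 0.97) and COL11A1 (0.85) were also just short of it in HAR123-KO. Of the marker lists, only the endoderm gene CER1 was called in HAR123-KO ESC (log2 fold change 1.49), and its part in these values was not tested.

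Differentiation itself changed more collagen genes than any genotype did, and the same held for all genes tested. From ESC to ECTO in hHAR123, 8 of 40 collagen genes tested rose and 16 fell, where 24.6% of all genes tested rose and 21.2% fell. The median of the collagen genes was -0.56 on the log2 scale against 0.05 over all genes. Between stages the scaling of the fit and the scaling per total count differ by 0.29 on the log2 scale, the fitted values being lower, and COL4A2, COL9A1 and COL27A1, none of them called, have opposite signs on the 2 scales.

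The genes that rose include the fibrillar chains of collagens II and XI. COL2A1 had 42.2, 42.0 and 41.6 CPM in ESC and 285, 304 and 305 CPM in ECTO (log2 fold change 2.54, SE 0.04, adjusted p = 2.23e-38, edgeR's quasi-likelihood test). COL11A1, whose chain joins collagen II in thin fibrils, had 16.8, 16.1 and 15.2 CPM and then 121, 117 and 116 CPM (log2 fold change 2.58, SE 0.05, adjusted p = 1.92e-35, edgeR's quasi-likelihood test). In both genes the stages were far apart and the libraries of a stage close together.

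COL6A6 had 6, 4 and 17 counts in ESC and 58, 49 and 47 in ECTO (log2 fold change 2.75, SE 0.31, adjusted p = 2.13e-10, edgeR's quasi-likelihood test), and the value was 3.52 without hHAR123 ESC replicate 3. COL28A1 had 0.473, 0.783 and 0.852 CPM and then 3.85, 3.35 and 3.80 CPM (log2 fold change 2.07, SE 0.21, adjusted p = 7.73e-12, edgeR's quasi-likelihood test). The stages did not overlap for either gene. COL7A1 (1.98), COL4A5 (1.84), COL4A6 (1.72) and COL9A2 (1.55) also rose.

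Both chains of the network-forming collagen VIII fell. COL8A2 had 178, 196 and 183 counts in ESC and 3, 7 and 0 in ECTO (log2 fold change -5.50, SE 0.28, adjusted p = 8.32e-21, edgeR's quasi-likelihood test), and the value was -6.57 without hHAR123 ECTO replicate 2. COL8A1 had 19, 19 and 18 counts and then 0, 1 and 0, a ratio of 38.4 after scaling by library totals (95% counting interval 6.62 to 1.54e+03). In HAR123-KO, COL8A1 was at 0 in all 3 ECTO libraries and at least 8.23-fold lower than in ESC, against a floor of 3 counts per library.

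COL21A1 had 94, 130 and 126 counts in ESC and 2, 2 and 6 in ECTO (log2 fold change -4.83, SE 0.30, adjusted p = 8.32e-18, edgeR's quasi-likelihood test), and the value was -5.53 without hHAR123 ECTO replicate 3. COL9A3 had 60.5, 61.2 and 59.6 CPM and then 9.276, 9.794 and 7.003 CPM (log2 fold change -3.09, SE 0.07, adjusted p = 7.39e-33, edgeR's quasi-likelihood test). COL6A3 had 9.72, 9.22 and 8.98 CPM and then 1.38, 1.36 and 1.84 CPM (log2 fold change -2.89, SE 0.13, adjusted p = 5.64e-22, edgeR's quasi-likelihood test). All 3 were lower in every ECTO library than in any ESC library. COL18A1 fell by 1.57 on the log2 scale and, as the leading gene of ESC, took 29.0% to 29.4% of the collagen counts there and 11.4% to 11.7% in ECTO.

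The stage change had the same direction in all genotypes for most of these genes. The calls of 8 higher genes (COL2A1, COL4A5, COL4A6, COL6A6, COL7A1, COL9A2, COL11A1 and COL28A1) and 13 lower genes (COL1A1, COL4A3, COL4A4, COL6A2, COL6A3, COL8A1, COL8A2, COL9A3, COL14A1, COL18A1, COL21A1, COL24A1 and COL25A1) were shared by all 4. The share of all genes called the same way in all 4 genotypes is not given here, so this sharing does not set collagen genes apart. In HAR123-KO, 13 of 40 genes tested rose (22.0% of all genes tested) and 15 fell (19.1%). In the ECTO libraries labelled cHAR123 against cHAR123 ESC, 10 of 40 rose (21.9%) and 14 fell (20.8%), and in those labelled mHAR123 against mHAR123 ESC, 10 of 40 rose (21.3%) and 15 fell (20.7%).

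An interaction term, fitted to the 12 libraries of hHAR123 and HAR123-KO, compared the effect of the knockout in ECTO with that in ESC. Of 40 collagen genes tested, 8 had a more positive effect in ECTO (3.84% of all genes tested) and 3 a more negative one (4.03%), or 11 in all where 7.87% of all genes tested were called. COL11A2 changed by 0.01 (SE 0.13) from ESC to ECTO in hHAR123 and by 4.62 (SE 0.06) in HAR123-KO on the log2 scale, and the effect of the knockout differed by 4.59 (SE 0.16, adjusted p = 1.08e-29, edgeR's quasi-likelihood test). COL1A2 changed by -0.44 (SE 0.04) and 2.41 (SE 0.03), a difference of 2.82 (SE 0.05, adjusted p = 7.96e-43, edgeR's quasi-likelihood test).

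COL23A1 fell in hHAR123 (-1.5, SE 0.10) and rose in HAR123-KO (1.71, SE 0.06), a difference of 3.18 (SE 0.11, adjusted p = 1.36e-29, edgeR's quasi-likelihood test). COL12A1 went the other way, with -0.80 (SE 0.14) in hHAR123 and -4.22 (SE 0.18) in HAR123-KO, a difference of -3.45 (SE 0.25, adjusted p = 1.02e-16, edgeR's quasi-likelihood test). In ESC, COL12A1 had 4.04, 3.67 and 4.03 CPM in hHAR123 and 7.41, 8.33 and 7.51 CPM in HAR123-KO, so the knockout libraries were the higher ones there and the lower ones in ECTO. For COL4A3 the interaction was 2.19 (SE 0.78, adjusted p = 0.0195, edgeR's quasi-likelihood test), which did not pass.

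**Figure D5:**
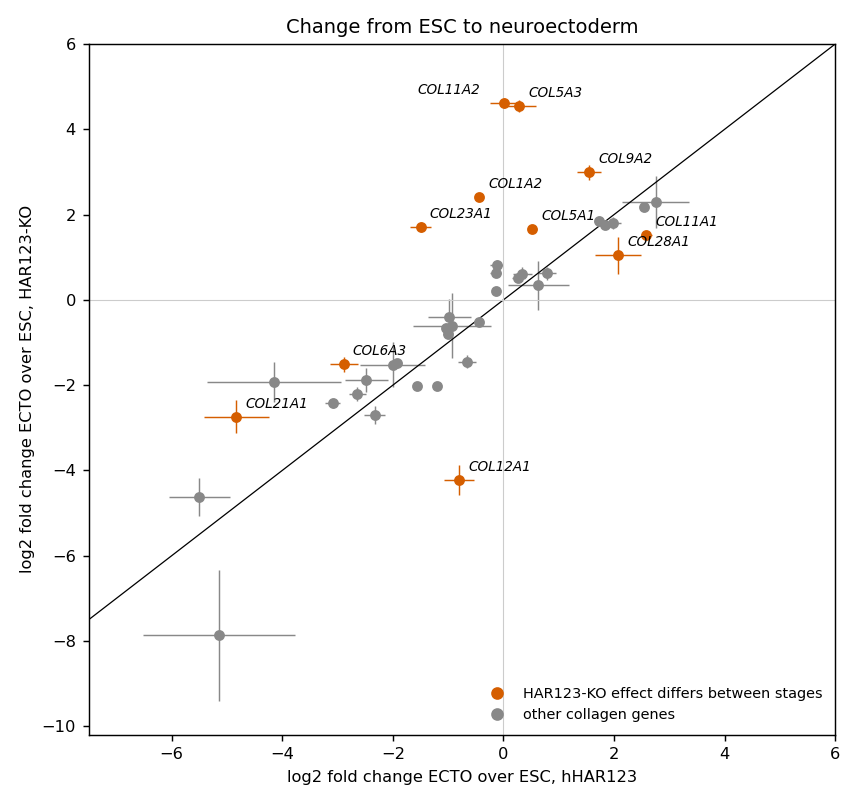
Log2 fold change from ESC to ECTO of each tested collagen gene in hHAR123 (horizontal axis) and in HAR123-KO (vertical axis), with 95% intervals from the standard error as bars and a line where both are equal. Orange points are the 11 genes whose knockout effect differs between the stages, with COL11A2, COL5A3, COL1A2 and COL23A1 far above the line and COL12A1 far below it.

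The proteins that make, cut and bind collagen were followed with lists of 78 genes. In ESC, 0 of 68 tested were called between HAR123-KO and hHAR123. At an unadjusted p under 0.05, edgeR's quasi-likelihood test gave 35 higher and 5 lower, and DESeq2 called 0. For this unadjusted cut, here and for the lists below, the share of all genes tested is not given. In ECTO, 11 of 67 tested rose (4.92% of all genes tested) and 5 fell (4.52%).

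Of 13 tested genes for prolyl and lysyl modification, which stabilises the helix, 0 were called in ECTO (median log2 fold change 0.28). At an unadjusted p under 0.05, 8 were higher and 2 lower by edgeR's quasi-likelihood test, and DESeq2 called 0. Of 9 tested genes for folding and secretion, 0 were called (median 0.05), with 4 higher and 0 lower at an unadjusted p under 0.05 and 0 by DESeq2.

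FMOD, encoding fibromodulin, which binds collagen fibrils, had a mean of 14.3 CPM in HAR123-KO ECTO and 0.427 CPM in hHAR123 ECTO (log2 fold change 5.11, SE 0.17, adjusted p = 2.04e-31, edgeR's quasi-likelihood test). PRELP, which links collagen to basement membranes, had means of 84.4 and 5.68 CPM (log2 fold change 3.95, SE 0.07, adjusted p = 8.9e-44, edgeR's quasi-likelihood test). These genes and BGN (1.80) were the 3 of 7 tested fibril regulators that rose, and THBS1 (-1.06) fell. Of 7 tested genes for procollagen cleavage, which trims chains before fibrils form, ADAMTS14 (2.34), PCOLCE2 (1.98) and ADAMTS3 (1.77) rose and TLL2 (-1.60) fell. ADAMTS3 and ADAMTS14 encode proteases that cut the amino-terminal propeptide.

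Among 12 basement membrane partners, HSPG2, encoding perlecan, had means of 673 and 266 CPM (log2 fold change 1.39, SE 0.03, adjusted p = 8.56e-39, edgeR's quasi-likelihood test). FREM1 (1.33) rose as well, and NID2 (-1.06), which ties laminin to collagen IV, fell. Of 6 collagen-cleaving proteases tested, MMP14 (1.85) rose, as did MMP9 (1.60), which lay below 1 CPM and was not called by DESeq2. Of 7 collagen receptors tested, the receptor kinase DDR2 (1.52) rose and the endocytic receptor MRC2 (-1.0) fell, and of 6 cross-linking enzymes tested, LOXL4 (-2.51) fell. In the ECTO libraries labelled cHAR123, 2 of 65 tested genes of these lists rose (0.522% of all genes tested) and 0 fell, and in those labelled mHAR123, 4 of 66 rose (0.603%) and 0 fell. FMOD and ADAMTS14 rose in both groups, with log2 fold changes for FMOD of 1.72 (SE 0.35) and 1.88 (SE 0.31). In the libraries labelled cHAR123, DESeq2 gave both genes no adjusted p and so called 0 genes of these lists there, and in those labelled mHAR123 it called 4.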

How the data were processed

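Ribosomal RNA-depleted directional libraries were sequenced as paired ends. According to the methods, the authors aligned reads with STAR 2.5.2b to GRCh38 and deposited raw counts of reads over exons per gene, made with featureCounts. The strand setting is not given in the sources used here. An entry for ANK2 broken over 3 lines was dropped. The remaining table holds 61551 genes, and 61398 have a symbol.

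Each pair of groups was fitted alone with edgeR 4.0.16 (R 4.3.3), with TMM scaling, its filter on low counts and the two-sided quasi-likelihood F test, and p-values were adjusted over all genes tested. Genes were called at an adjusted p below 0.01 with a log2 fold change beyond 1 in either direction. Standard errors were computed from the log2 fold change and F. CPM used the total counts of a library, and RPKM the merged exon length. Counts of 0 were set against a floor of 3 counts per library. Intervals and floors cover counting error only. DESeq2 1.42.0, other filters and scalings, a replicate block and leaving out each library were the alternatives. Tables were made with Python 3.11.15, and the fits were tested on simulated data.

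The collagen genes, the other lists and the tests were chosen with earlier results of these data known. Named with values per library were collagen genes called against hHAR123 whose mean reached 1 CPM in a group, the 4 largest changes in each direction between stages in hHAR123, and the collagen IV pairs. Genes named beyond these (COL3A1, COL8A1, COL21A1 and COL1A1) were chosen after their values were seen.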

Additional observations from a re-analysis of the deposited data

Results flagged for a closer look

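The effect of the knockout differed between ECTO and ESC, by the interaction term of edgeR's quasi-likelihood test, for 11 collagen genes. The effect in ECTO minus that in ESC, on the log2 scale, was 4.59 for COL11A2, 4.23 for COL5A3, 3.18 for COL23A1, 2.82 for COL1A2, 2.06 for COL21A1, 1.41 for COL9A2, 1.35 for COL6A3 and 1.11 for COL5A1. It was -3.45 for COL12A1, -1.10 for COL11A1 and -1.06 for COL28A1. The smallest of these in size, COL28A1, had an SE of 0.32 and an adjusted p of 0.00541 by the same edgeR test. Neural crest markers, summed, were at 1397 to 1414 CPM in HAR123-KO ECTO and 126.3 to 128.1 CPM in HAR123-KO ESC, and their part in these differences was not tested.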

How the results depend on the processing

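Tried were DESeq2, its size factors in edgeR, no filter on low counts, all libraries in a single fit, the replicate block and adjusted p under 0.05. Each left every count of called collagen genes within 1.5 times its value. No named value that was called changed sign. Uncalled values near 0 could: COL4A6 in mHAR123 ESC lay at -0.01, and between -0.03 and 0.01 with 1 library left out. Leaving out 1 library gave 1 to 2 higher genes for HAR123-KO and 1 to 2 for mHAR123 in ESC, all through COL4A4 near the fold threshold. In ECTO it gave 11 higher and 1 lower for HAR123-KO each time, and 8 to 10 lower genes in the libraries labelled cHAR123 against HAR123-KO, where DESeq2 gave 9. The interaction gave 10 to 12 genes. The replicate block gave 11 higher and 1 lower for HAR123-KO in ECTO and changed no count. The numbers do not pair the samples, since deviations of same-numbered libraries correlated at -0.054 to 0.057. Counts of at most 10 per library, as for COL4A3, COL8A1, COL8A2 and COL21A1 in hHAR123 ECTO, limit the size of their folds.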

Other observations

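Some collagen genes lie next to each other in the genome, and their log2 fold changes of HAR123-KO over hHAR123 in ECTO were as follows. COL4A3 and COL4A4 both rose, by the values given for them above. The genes as counted lie 170 bases apart, and the RefSeq starts used above lie 419 bases apart. COL6A1 and COL6A2, 93061 bases apart, had 0.25 (SE 0.04) and 0.52 (SE 0.06) and were not called. COL5A2, 19151 bases from COL3A1, had 0.53 (SE 0.05), COL9A1, 3571 bases from COL19A1, had 0.64 (SE 0.05), and COL6A6, 32332 bases from COL6A5, had -0.32 (SE 0.20). These 3 genes were not called, and the neighbour of each was too low to test.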
